A study of Mus musculus with 55 samples.

Results

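The lungs of mice that received arsenite together with dexamethasone were compared with the lungs of mice that received dexamethasone alone. The comparison used 10 of the 55 mice of the series, 5 in each group, chosen by the injection named in their sample labels. All were male C57BL/6 mice, 6 weeks of age at the start, kept for 2 weeks on the purified AIN-76A diet with no As added to food or drinking water. One group was injected intraperitoneally with 1 mg/kg dexamethasone in saline, and the other with 1 mg/kg dexamethasone and 1 mg/kg sodium arsenite in saline. The labels give 8 hours for the injection. Mice injected with saline (n = 5) or with 1 mg/kg sodium arsenite alone (n = 5, of which 4 were fitted) on the same diet served as background. The labels give each mouse a letter, which is used here as its name within its group. The question was whether As changed the response of the lung to a glucocorticoid.

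Dexamethasone is a synthetic glucocorticoid. It binds the glucocorticoid receptor, a nuclear hormone receptor that then raises the transcription of some genes and lowers that of others, among them many genes of inflammation. Circulating lymphocytes and monocytes fall within hours of a glucocorticoid dose. Arsenite reacts with protein thiols, and cells exposed to enough of it raise heat shock proteins, metallothioneins and targets of the antioxidant factor Nrf2.

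RNA of whole lung was measured on 1 Affymetrix mouse whole-genome array per mouse. A probe set is the group of probes that reports 1 transcript, and its value is given on the log2 scale after robust multiarray averaging (RMA), so that a difference of 1 is a doubling. Levels can be compared between mice but not between probe sets. In whole lung, fewer cells of a type and less RNA per cell cannot be told apart. The 10 arrays had medians between 4.255 and 4.369 and correlated with the mean of their group at 0.9825 to 0.9954. The array of dexamethasone + As mouse A stood apart in its group. It had the lowest of these correlations and the lowest interquartile range (3.534 against 3.816 to 3.935), and its 3′ minus 5′ signal of Gapdh, a measure of RNA degradation, was 0.883 against 0.015 to 0.535. On actin, the same measure of this array was 1.019, within the 0.700 to 1.139 of its group. Weights estimated from the fit gave it 0.3038, the lowest of the 19 arrays. Its part in the results was not tested beyond leaving it out. Alveolar type II cell markers, which include the surfactant proteins, averaged between 12.05 and 12.50 in every one of the 10 mice, so the markers of the labelled tissue were present. Both groups had mice in 4 of the 5 array batches, which were read from the prefix of the raw array file name. Dexamethasone + As mouse A shared array batch 1 with dexamethasone mouse C. The array of the latter also had a low interquartile range (3.547) and the next lowest weight (0.38). Arsenite mouse E, whose array correlated with the others of its group at only 0.26, was left out of the fit. Saline mouse E carried thymus markers at a mean of 7.78, against 4.10 to 4.22 in the other saline mice.

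No probe set passed an adjusted p of 0.05 between dexamethasone + As and dexamethasone (limma, Benjamini-Hochberg over 45037 probe sets), so the share called was 0.0%. The smallest adjusted p was 0.9999. At an unadjusted p of 0.05, limma gave 533 probe sets higher and 494 lower, 1027 in all. The rank product, a test on ranked differences between single mice, called 3449 probe sets higher and 3119 lower, but its 25 differences share mice and it also called unchanged probe sets on simulated data. Taken by gene, with the brightest probe set standing for each of 18193 genes, 209 genes (1.15%) were higher and 233 (1.28%) lower at an unadjusted p of 0.05. Groups did not overlap for 46 genes (0.253%) that were higher and 34 genes (0.187%) that were lower with As. The median difference over genes was 0.01. The 95% interval of the difference lay within 1 log2 unit of 0 in either direction for 97.9% of probe sets, and the median distance from the difference to either end of its interval was 0.26. For the 19364 probe sets with a mean over 5 on the fitted arrays, these values were 96.8% and 0.30. The single genes below did not pass the adjusted threshold in this comparison, and the p given for them is that of an exact permutation test, two-sided and unadjusted. With 5 mice against 5 it cannot go below 0.00794.

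Dexamethasone changed lung RNA relative to saline with and without As. With dexamethasone alone, 62 genes (0.341%) rose and 115 (0.632%) fell at an adjusted p of 0.05. With dexamethasone + As, 114 genes (0.627%) rose and 96 (0.528%) fell. Both counts use the same saline mice, so they are not independent. They also depended on the mice fitted. With arsenite mouse E in the fit, the probe sets past the threshold went from 121 higher and 161 lower to 8 and 0 for dexamethasone, and from 199 higher and 141 lower to 7 and 0 for dexamethasone + As.

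The genes with the largest responses to dexamethasone alone were set beside their response to dexamethasone + As. They were chosen by the dexamethasone mice after values had been seen, so the first value of each pair is a description. Sema5a, a semaphorin involved in cell guidance, had 7.63, 7.95, 7.80, 8.13 and 7.79 in dexamethasone mice A, B, C, E and F. It had 6.55, 7.57, 7.32, 7.73 and 8.04 in dexamethasone + As mice A, C, D, E and F, and 5.53 to 6.26 in saline mice. All 10 mice given dexamethasone were above every saline mouse. Sema5a rose by 2.11 with dexamethasone (4.32-fold, adjusted p = 0.000282) and by 1.69 with dexamethasone + As (3.23-fold, adjusted p = 0.00124). The difference between the groups was -0.42 (95% interval -0.86 to 0.03, exact permutation p = 0.143).

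The other genes that rose with dexamethasone were also higher with dexamethasone + As. Fst, which encodes the activin antagonist follistatin, differed from saline by 1.73 with dexamethasone and by 1.50 with dexamethasone + As. Lox, which encodes lysyl oxidase, a collagen cross-linking enzyme, differed by 1.47 and 1.76. Gnmt, a glycine methyltransferase that uses S-adenosylmethionine, differed by 1.63 and 1.54, and Uchl1, a ubiquitin hydrolase, by 1.42 and 1.59. Tecrl (2.03 and 1.79), Adgrl3 (1.73 and 1.64), 1110064A23Rik (1.69 and 1.39) and Clca3a1 (1.65 and 1.77) gave similar pairs. These 9 genes, Sema5a included, passed the adjusted threshold in both comparisons. Sox11, a developmental transcription factor, differed by 1.35 with dexamethasone (adjusted p = 0.0439) and by 0.87 with dexamethasone + As (adjusted p = 0.244). Its difference between the groups was -0.48 (95% interval -1.10 to 0.15, exact permutation p = 0.278). With arsenite alone Sox11 differed from saline by 0.80 (adjusted p = 0.683), and the test of whether As acted differently with and without dexamethasone gave -1.28 (95% interval -2.19 to -0.37, adjusted p = 0.999), which did not pass.

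Among the genes that fell were several that blood leukocytes express. Adgre4, an adhesion receptor of monocytes, had 4.61, 4.88, 3.69, 3.64 and 4.40 in dexamethasone mice A, B, C, E and F. It had 3.74, 4.22, 6.34, 3.75 and 4.24 in dexamethasone + As mice A, C, D, E and F, and 5.59 to 8.10 in saline mice. Mouse D was the one dexamethasone + As mouse within the saline range. Adgre4 fell by 2.56 with dexamethasone (adjusted p = 0.0262) and by 2.35 with dexamethasone + As (adjusted p = 0.0341). Nkg7, a granule protein of natural killer and cytotoxic T cells, fell by 1.70 and 1.64, and Ccl5, a chemokine made by the same cells, by 1.55 and 1.54. S100a4 (-1.65 and -1.64), Prkcb (-1.77 and -1.77), a protein kinase C of B cells and other leukocytes, Tbc1d10c (-1.66 and -1.51) and Ms4a4c (-2.06 and -1.90) passed in both comparisons. Btla, Plac8, Ms4a6b and Lst1 passed with dexamethasone alone, at -1.87, -1.80, -1.70 and -1.68. With dexamethasone + As they had -1.52, -1.53, -1.37 and -1.38, at adjusted p between 0.0626 and 0.095. Saline mouse E, which carried thymus markers, was the highest saline mouse in Prkcb (8.99), Btla (7.68) and Tbc1d10c (7.71). In Adgre4, Nkg7, S100a4, Ms4a4c, Plac8, Ms4a6b and Lst1 the highest was saline mouse F. Over the 10 genes that rose and the 10 that fell most, the difference between dexamethasone + As and dexamethasone ran from -0.48 to 0.35, and the exact permutation p from 0.135 upward.

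**Figure D1:**
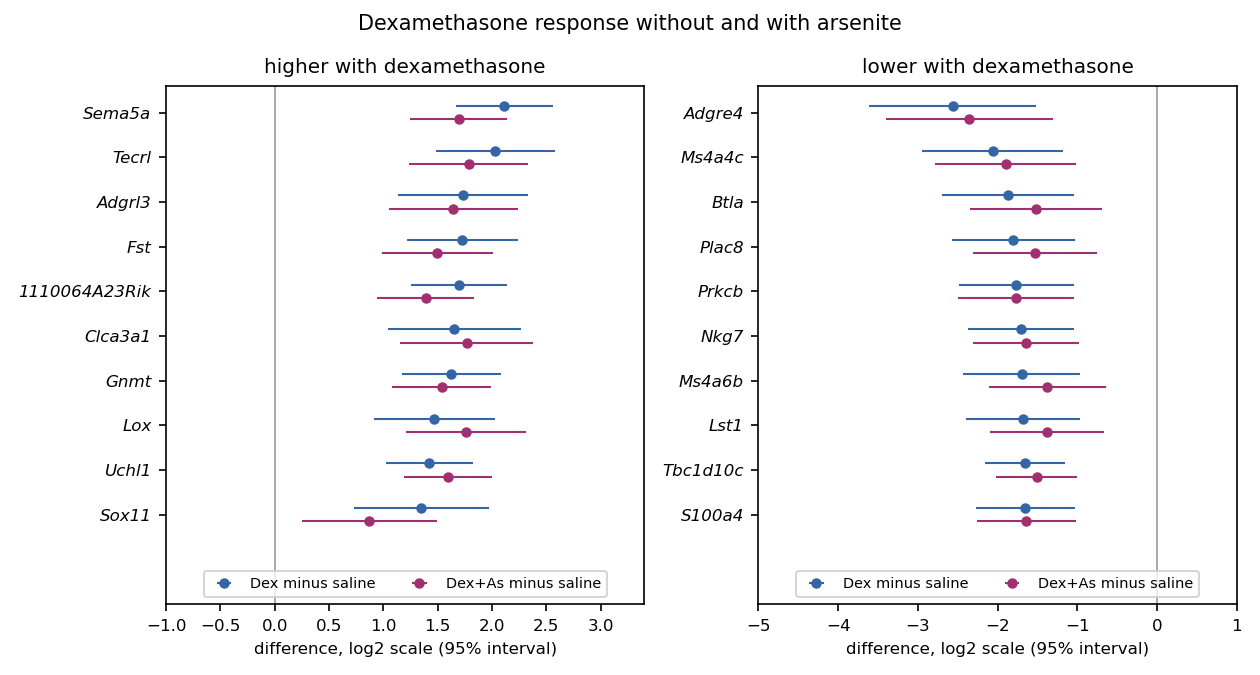
Difference from saline (log2 scale, horizontal axis) of the 10 genes highest and the 10 genes lowest with dexamethasone, for dexamethasone (blue) and dexamethasone + As (purple), with 95% intervals from limma. The intervals of the paired points overlap for each gene, and both sets share the same 5 saline mice.

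Single mice stood out among these responses. Dexamethasone + As mouse A was the lowest of its 5 in 8 of the 10 genes that rose, and mouse D was the highest of its 5 in 9 of the 10 genes that fell. In mouse D, Ms4a4c was at 7.61 and Plac8, a myeloid and lymphoid gene, at 10.03, against at most 5.75 and 8.51 in the other dexamethasone + As mice. Marker lists of lymphocytes had medians below 0 relative to saline in both groups. Natural killer cell markers had a median of -1.31 with dexamethasone and -1.09 with dexamethasone + As, B cell markers -1.07 and -1.23, and T cell markers -0.72 and -0.68. Between the dexamethasone groups their medians were 0.07, -0.25 and -0.08. At a limma p under 0.05 there were 0 of their 37 genes, beside 1.15% of all genes higher and 1.28% lower. With 37 genes, 0 cannot be told apart from these shares. Saline mouse E was the highest of the saline mice in T and B cell markers, at 7.68 and 7.78.

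Well known glucocorticoid targets differed between the groups by less than the spread between mice. The list of 34 glucocorticoid-induced genes had a median difference of 0.18 between dexamethasone + As and dexamethasone, with 26 genes higher and 8 lower, beside 0.01 over all genes. None of the 34 had a limma p under 0.05, beside 1.15% of all genes higher and 1.28% lower. With 34 genes, a count of 0 cannot be told apart from these shares. None passed the adjusted threshold in either group relative to saline. The list median relative to saline was -0.07 with dexamethasone and 0.16 with dexamethasone + As. No rise of the list with dexamethasone alone was seen, so it cannot show whether As changed such a rise. The mean of the list was 10.29, 9.20, 8.80, 9.76 and 8.93 in dexamethasone + As mice A, C, D, E and F, 9.00 to 9.43 in dexamethasone mice and 8.98 to 9.75 in saline mice. The dexamethasone + As mice thus lay on both sides of the dexamethasone mice. Without mouse A the median difference was 0.01, with 18 genes higher and 16 lower, and without mouse D, E or F it was 0.27, 0.09 or 0.33.

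Fkbp5, a chaperone that binds the glucocorticoid receptor complex, showed this spread. It was 9.22, 8.77, 8.91, 9.48 and 8.15 in dexamethasone mice A, B, C, E and F, and 10.87, 9.11, 7.59, 10.07 and 8.77 in dexamethasone + As mice A, C, D, E and F. The means were 8.91 ± 0.50 and 9.28 ± 1.25 (SD, n = 5 each), which differed by 0.38 (95% interval -0.70 to 1.45), and by -0.02 without mouse A. Groups overlapped throughout, and the highest and the lowest value both belonged to mice given As.

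Tsc22d3, Zbtb16 and Pdk4 ranked the dexamethasone + As mice in the same order as Fkbp5. Tsc22d3, which encodes the anti-inflammatory protein GILZ, was 10.23 ± 0.22 with dexamethasone and 10.61 ± 0.58 with dexamethasone + As, a difference of 0.38 (95% interval -0.15 to 0.91). Zbtb16, a zinc finger repressor, was 8.26 ± 0.65 and 8.66 ± 1.27, and Pdk4, which restrains glucose oxidation, was 7.57 ± 0.46 and 7.82 ± 1.38. In each of them mouse A was the highest and mouse D the lowest of the dexamethasone + As mice. Ddit4, an inhibitor of mTOR signalling, differed by 0.74 (95% interval -0.22 to 1.71) and by 0.26 without mouse A. Il1r2, the interleukin 1 decoy receptor, was 10.62 in mouse A and 5.31 to 6.65 in the other dexamethasone + As mice, and its difference of 0.77 became -0.16 without mouse A. Fam107a differed by 0.68 and Map3k6, a stress kinase, by 0.56. Without mouse A they differed by 0.36 and 0.23, and without mouse D by 1.08 and 0.87. Per1, Klf9 and Dusp1, other direct targets, differed by -0.01, 0.04 and 0.18. The receptor gene itself, Nr3c1, differed by -0.09 (95% interval -0.39 to 0.22), and the 17 measured genes for the receptor, its chaperones and steroid enzymes had a median of 0.00.

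**Figure D2:**
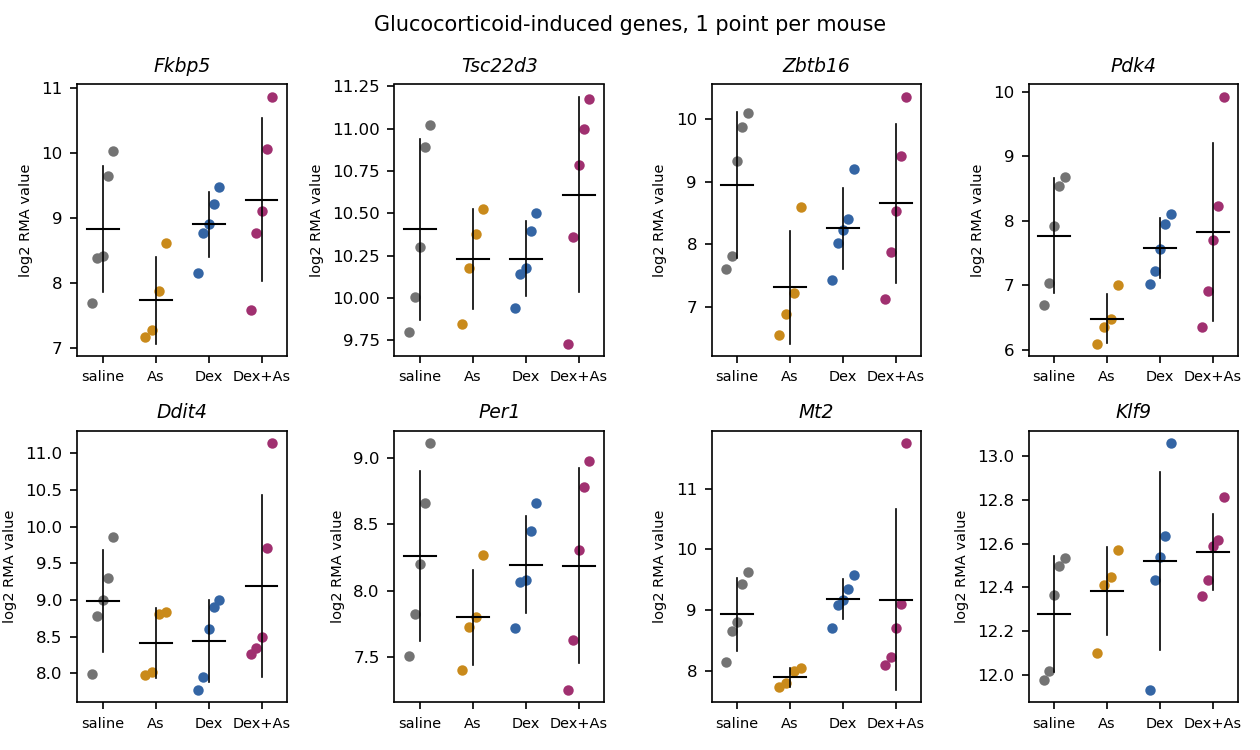
RMA value (log2) of 8 glucocorticoid-induced genes in saline, arsenite (As), dexamethasone (Dex) and dexamethasone + As mice, 1 point per mouse in order of value, with the mean (bar) and SD (line) of each group. Fkbp5 ran from 7.59 to 10.87 in dexamethasone + As mice and from 8.15 to 9.48 in dexamethasone mice, and the dexamethasone groups overlap in each panel.

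Immediate early transcription factors are switched on within an hour of many signals, and the Nr4a genes among them encode orphan nuclear receptors. Nr4a3 had the smallest limma p of the 45037 probe sets. It was 7.26, 7.50, 7.91, 8.34 and 8.70 in dexamethasone mice A, B, C, E and F, and 6.91, 5.20, 7.47, 6.45 and 5.62 in dexamethasone + As mice A, C, D, E and F. Only mouse D of the dexamethasone + As mice reached the range of the dexamethasone mice. The means were 7.94 ± 0.59 and 6.33 ± 0.93 (SD, n = 5 each), a difference of -1.61 (95% interval -2.36 to -0.87, exact permutation p = 0.0159), or 3.06-fold higher with dexamethasone alone. Within the 4 shared array batches the difference was -1.01, -1.64, -3.33 and -0.03 (batches 1, 2, 4 and 5). Each sets a single dexamethasone + As mouse against a single dexamethasone mouse, or against mice E and F in batch 4. In batch 5 mouse D differed from dexamethasone mouse B by practically nothing, and a batch cannot be told apart from its mice. With array batch as a fixed block it was -1.67 (95% interval -2.46 to -0.89). Saline mice had 6.70 ± 0.29 and arsenite mice 6.88 ± 0.50, so dexamethasone alone gave the highest mean of the 4 groups, although its difference from saline of 1.24 did not pass (adjusted p = 0.148). The test of whether As acted differently with and without dexamethasone gave -1.79 (95% interval -2.88 to -0.70, adjusted p = 0.999).

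Nr4a2 was measured by 2 probe sets, which differed by -0.66 (exact permutation p = 0.0635) and -0.56 (exact permutation p = 0.0317). On the first it was 6.03, 6.82, 5.95, 6.94 and 7.16 in dexamethasone mice A, B, C, E and F, and 5.66, 5.65, 6.75, 5.97 and 5.55 in dexamethasone + As mice A, C, D, E and F. Nr4a1 was 10.34 ± 0.90 and 9.53 ± 1.13, a difference of -0.80 that was within the spread between mice (exact permutation p = 0.238). The 250 bases before the start of each Nr4a gene are shown because the 3 genes are known targets of cyclic AMP signalling. The sequences are those of RefSeq on GRCm38.p6, 5′ to 3′ on the strand of the gene, with the core TGACG of the cyclic AMP response element, or its reverse complement, in capitals.
Nr4a3, chr4:48045055-48045304, plus strand: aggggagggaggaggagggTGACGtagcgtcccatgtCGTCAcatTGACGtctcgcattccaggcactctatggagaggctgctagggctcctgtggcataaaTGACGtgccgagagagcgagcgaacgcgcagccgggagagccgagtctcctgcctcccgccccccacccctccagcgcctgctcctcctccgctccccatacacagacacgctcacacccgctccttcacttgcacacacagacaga
Nr4a2, chr2:57124004-57124253, minus strand: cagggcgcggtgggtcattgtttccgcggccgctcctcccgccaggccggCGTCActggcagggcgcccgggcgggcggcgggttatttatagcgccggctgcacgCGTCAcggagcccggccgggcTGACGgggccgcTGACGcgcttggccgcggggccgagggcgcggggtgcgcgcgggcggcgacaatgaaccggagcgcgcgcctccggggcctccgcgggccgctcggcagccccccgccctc
Nr4a1, chr15:101266596-101266845, plus strand: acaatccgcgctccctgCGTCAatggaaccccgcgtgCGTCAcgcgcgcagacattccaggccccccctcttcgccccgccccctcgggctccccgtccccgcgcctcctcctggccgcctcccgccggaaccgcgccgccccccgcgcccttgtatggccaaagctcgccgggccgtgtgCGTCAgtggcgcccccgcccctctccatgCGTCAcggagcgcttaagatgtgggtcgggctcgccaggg
Each window held 4 of these cores, with no overlap between them. Of 32851 windows of this length, 17.8% held the core on either strand and 0.137% held 4 or more. These genes were chosen after values had been seen, and a match is a description, not a binding site.

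Over the 24 immediate early genes, the median difference was -0.19, with 20 genes lower and 4 higher. It was -0.34 without dexamethasone mouse B and -0.32 without dexamethasone + As mouse E. At an unadjusted p of 0.05, 5 were lower and 0 higher, beside 1.28% and 1.15% over all genes. Besides Nr4a3 and Nr4a2 these were Atf3, a stress-induced repressor (-0.96), Fosl2, a subunit of AP-1 (-0.29), and Srf, the serum response factor (-0.30), at exact permutation p of 0.159, 0.0952 and 0.0476. Fosb differed by -1.11, Egr1 by -0.64 and Fos by -0.18, with exact permutation p of 0.246, 0.325 and 0.73. Fos showed how far mice of a group were apart, with 10.03 to 12.05 in dexamethasone mice and 9.62 to 12.24 in dexamethasone + As mice. Fosl2 was also among the genes with the smallest limma p for the dependence of the As difference on dexamethasone (-0.82, 95% interval -1.23 to -0.42, adjusted p = 0.999).

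Circadian clock genes were among those with the smallest p. The clock turns on opposed arms, in which Arntl and Npas2 activate transcription and Dbp, Nr1d1 and Nr1d2 are output genes that peak at another time of day. Dbp was 7.56, 6.88, 6.63, 8.06 and 7.12 in dexamethasone mice A, B, C, E and F, and 4.47, 6.41, 6.13, 6.70 and 5.86 in dexamethasone + As mice A, C, D, E and F. Only mouse E of the dexamethasone + As mice reached the lowest dexamethasone mouse. The difference was -1.34 (95% interval -2.15 to -0.52, exact permutation p = 0.0159), and -1.18 on a second probe set (exact permutation p = 0.0159). Relative to saline, Dbp fell by 1.86 with dexamethasone + As (adjusted p = 0.032), and its difference was -0.52 with dexamethasone alone (adjusted p = 0.801).

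Nr1d2, which encodes the repressor REV-ERB beta, was 9.22 ± 0.23 with dexamethasone and 8.57 ± 0.39 with dexamethasone + As, a difference of -0.65 (exact permutation p = 0.0159). It fell by 0.92 relative to saline with dexamethasone + As (adjusted p = 0.0317). Within the 4 shared array batches the differences ran from -2.16 to -0.75 for Dbp and from -0.98 to -0.48 for Nr1d2. Each again rests on a single dexamethasone + As mouse. Bhlhe40, a repressor of the clock, differed by -0.68, Hlf, a relative of Dbp, by -0.58, and Nr1d1 by -0.70, with exact permutation p of 0.0635, 0.0397 and 0.183. On the other arm, Arntl was 7.63 ± 0.28 and 7.93 ± 0.20, a difference of 0.31, and Npas2 differed by 0.52, each with an exact permutation p of 0.0873. Arntl rose by 0.84 relative to saline with dexamethasone + As (adjusted p = 0.00767) and had 0.53 with dexamethasone (adjusted p = 0.1). The repressor gene Cry1 rose in both, by 1.16 (adjusted p = 0.00918) and 0.92 (adjusted p = 0.0403).

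Of the 18 clock genes measured, 13 were lower and 5 higher with As, with a median of -0.15. At an unadjusted limma p of 0.05, 4 were lower and 2 higher, beside 1.28% and 1.15% over all genes. The median was -0.04 without dexamethasone + As mouse D and -0.06 without dexamethasone mouse E. Arsenite mice without dexamethasone had 7.13 ± 0.72 for Dbp, 9.08 ± 0.31 for Nr1d2 and 7.59 ± 0.26 for Arntl, each between the saline mean (7.78, 9.49 and 7.09) and the dexamethasone + As mean. The dependence of the As difference on dexamethasone was -0.69 for Dbp (95% interval -1.89 to 0.50) and -0.24 for Nr1d2 (95% interval -0.83 to 0.35). The hour of the day at which mice were injected is not given in the sources used here.

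**Figure D3:**
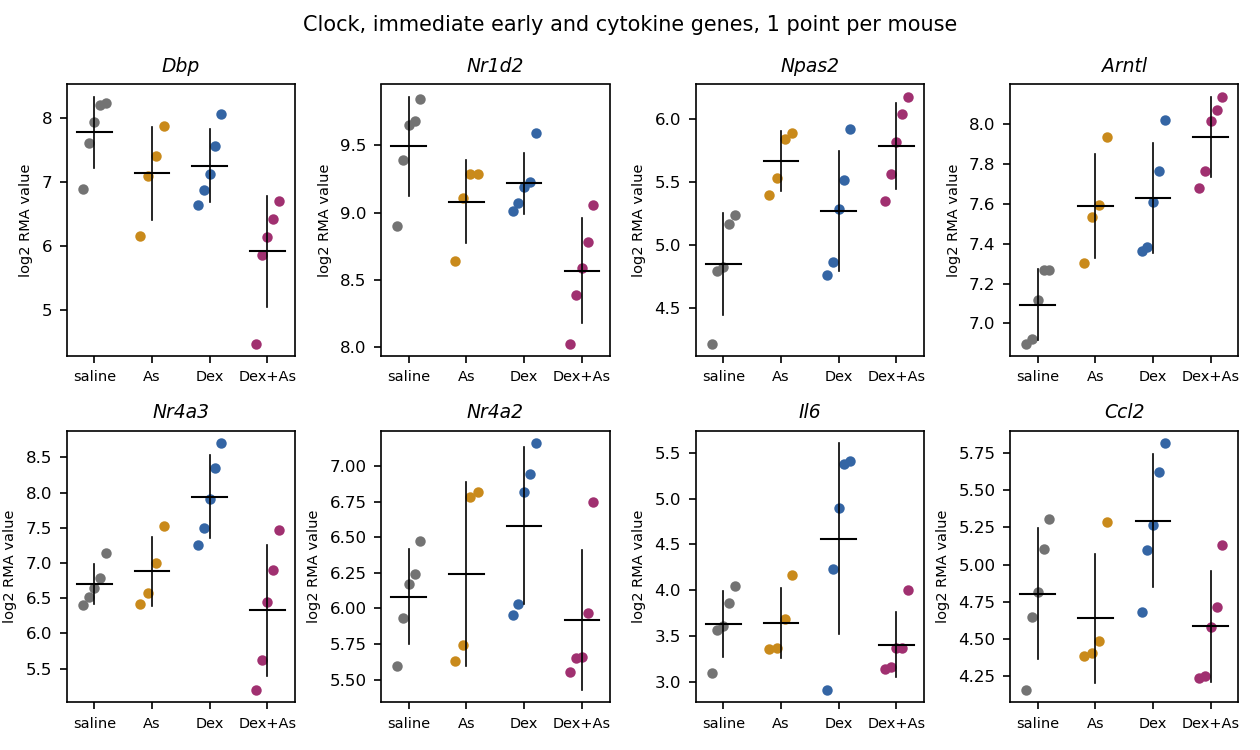
RMA value (log2) of 4 clock genes, the immediate early genes Nr4a3 and Nr4a2, and the cytokines Il6 and Ccl2 in saline, arsenite (As), dexamethasone (Dex) and dexamethasone + As mice, 1 point per mouse in order of value, with the mean (bar) and SD (line) of each group. Dbp, Nr1d2 and Nr4a3 had lower means with dexamethasone + As than with dexamethasone, with 1 or more overlapping mice, and Npas2 and Arntl had higher means.

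Of 27 inflammatory genes that glucocorticoids are known to lower, 23 were lower and 4 higher with As, with a median of -0.25, and 5 were lower and 0 higher at an unadjusted limma p of 0.05, beside 1.28% and 1.15% over all genes. Il6, the cytokine interleukin 6, was 4.23, 2.91, 5.41, 5.37 and 4.89 in dexamethasone mice A, B, C, E and F, and 3.16, 3.37, 4.00, 3.37 and 3.14 in dexamethasone + As mice A, C, D, E and F. The difference was -1.16 (exact permutation p = 0.0794), and mouse B of the dexamethasone group was the lowest of all 10. Ccl2, a chemokine that draws monocytes, was 5.30 ± 0.45 and 4.58 ± 0.37, a difference of -0.71 (exact permutation p = 0.0397). Cxcl1, which draws neutrophils, differed by -0.99, Csf2, a growth factor of myeloid cells, by -0.55 and Cxcl10, a chemokine induced by interferon, by -0.64, with exact permutation p of 0.183, 0.0635 and 0.103. Il6, Ccl2 and Cxcl10 had means under 5 over the 10 mice. Ccl3 differed by -0.80 (exact permutation p = 0.206). Saline mice had 3.63 ± 0.36 for Il6 and 4.80 ± 0.44 for Ccl2. Dexamethasone against saline gave 0.93 for Il6 (adjusted p = 0.366) and 0.49 for Ccl2 (adjusted p = 0.581), so neither was shown to be lower with dexamethasone alone. Over the 27 genes the median relative to saline was -0.01 with dexamethasone and -0.20 with dexamethasone + As. No fall of the list with dexamethasone alone was thus seen.

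Heat shock proteins refold other proteins, and their genes respond to arsenite in many cells. When As was added to dexamethasone, of 24 genes 21 were lower and 3 higher, with a median of -0.19, which was -0.10 without dexamethasone + As mouse A. Hspa1b, an inducible HSP70, was 9.58, 9.55, 10.92, 11.46 and 9.23 in dexamethasone mice A, B, C, E and F, and 7.85, 7.95, 9.64, 8.92 and 9.93 in dexamethasone + As mice A, C, D, E and F. The means were 10.15 ± 0.98 and 8.86 ± 0.95, with overlap (-1.29, exact permutation p = 0.103). Hspa1a, its near-identical neighbour whose signal cannot be fully told apart from it, differed by -1.11 (exact permutation p = 0.127).

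Without dexamethasone the mean was higher with As. Hspa1b was 8.75 ± 0.73 in saline mice and 10.32 ± 1.03 in the 4 arsenite mice. For arsenite against saline no probe set passed the adjusted threshold, Hspa1b included (limma, smallest adjusted p 0.197). The dependence of the As difference on dexamethasone was -2.86 for Hspa1b (95% interval -4.45 to -1.27), -0.84 for Hsp90aa1 (95% interval -1.41 to -0.27), -1.01 for the cochaperone Dnaja1 (95% interval -1.66 to -0.35) and -1.26 for Hsph1 (95% interval -2.30 to -0.22). Of the 24 genes, 16 had an unadjusted limma p under 0.05 for this dependence, beside 4.44% of all genes. None passed the adjusted threshold, as no probe set did for this test (0.0% of 45037, smallest adjusted p 0.379, with 1706 at an unadjusted p under 0.05). The arsenite difference without dexamethasone had a median of 0.38 over the 24 genes, and it rests on 4 mice. The promoter of Hspa1b, in the same form as above, is shown with the core GAANNTTC of the heat shock element in capitals.
Hspa1b, chr17:34959239-34959488, minus strand: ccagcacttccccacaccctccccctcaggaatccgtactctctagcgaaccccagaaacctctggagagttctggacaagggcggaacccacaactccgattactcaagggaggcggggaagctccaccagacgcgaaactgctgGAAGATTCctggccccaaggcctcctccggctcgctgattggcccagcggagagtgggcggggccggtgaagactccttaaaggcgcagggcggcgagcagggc
The core was found at position -104 from the start, and 6.69% of the 32851 windows held it at least once. The gene was chosen after its values had been seen.

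The metallothioneins Mt1 and Mt2, which bind zinc and arsenic and respond to glucocorticoids, differed little in their means. Mt2 was 9.17 ± 0.33 with dexamethasone and 9.17 ± 1.50 with dexamethasone + As, where mouse A had 11.75 and the others 8.10 to 9.10. Mt1 differed by -0.12 (95% interval -1.03 to 0.79). Mt3 differed by -0.18 and Mt4 by -0.67, and Mt4 by 0.26 without dexamethasone mouse A. The 19 genes of metallothioneins and zinc transport had a median of 0.02. Among the 38 Nrf2 targets the median was 0.05. The largest difference among them was -0.69, in Me1, which is also in the fatty acid list. Tkt differed by -0.31 and Osgin1 by 0.27. Nqo1, a quinone reductase, was 5.15 ± 0.22 and 5.57 ± 0.18, a difference of 0.42 (exact permutation p = 0.0238), Hmox1, heme oxygenase 1, differed by -0.06, and Txnrd1, thioredoxin reductase, by 0.11. Gsta3 rose relative to saline in both groups, by 0.84 (adjusted p = 0.0301) and 0.88 (adjusted p = 0.02).

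Among the 14 genes of arsenic uptake, methylation and export, Abcc3, an export pump for conjugates, was 7.75, 7.43, 7.53, 7.93 and 7.70 in dexamethasone mice A, B, C, E and F. It was 7.96, 7.93, 7.87, 8.65 and 8.16 in dexamethasone + As mice A, C, D, E and F, higher by 0.45 (95% interval 0.15 to 0.75, exact permutation p = 0.0159). Only mouse D lay below the highest dexamethasone mouse. Relative to saline Abcc3 rose by 0.91 with dexamethasone + As (adjusted p = 0.00442) and had 0.46 with dexamethasone (adjusted p = 0.2), and the dependence of the As difference on dexamethasone was 0.02 (95% interval -0.42 to 0.45). The median of the 14 genes was 0.07.

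Markers of fat were among the largest differences in size. Of the 99 probe sets that differed by more than 1, 94 were lower with As, and in 55 of these dexamethasone mice A, B and C were all above mice E and F. The share of all probe sets with this order was not counted. Probe sets picked for a higher dexamethasone mean tend to hold high dexamethasone mice, so the 55 are only a description. All 10 fat markers were lower, with a median of -1.98, and 8 had an unadjusted p under 0.05, beside 1.28% of all genes lower at that p. Adipoq, the fat cell hormone adiponectin, was 10.99, 9.71, 11.38, 7.92 and 6.11 in dexamethasone mice A, B, C, E and F, and 4.91, 6.17, 7.21, 6.36 and 5.25 in dexamethasone + As mice A, C, D, E and F. The mean of the 10 markers was 9.06, 8.73 and 9.53 in dexamethasone mice A, B and C, 6.76 and 6.09 in mice E and F, and 5.74 to 6.49 in dexamethasone + As mice. Saline mice had 5.76 to 10.38 and arsenite mice 5.02 to 7.08. Without dexamethasone, the median of these markers for arsenite against saline was -1.88. The dependence of the As difference on dexamethasone had a median of -0.09 over them. Its cause was not tested. Without dexamethasone mice A, B and C, the fat median was -0.23 with 0 genes under an unadjusted p of 0.05, and 17 of the 94 probe sets were still below -1. These mice were left out for their high fat markers, so a smaller fat difference was fixed in advance. Fewer mice were also left, so these values do not test what the large differences follow.

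Of 23 measured genes of fatty acid metabolism, 18 were lower and 5 higher with As. Fasn, fatty acid synthase, was 10.74 ± 0.95 and 9.78 ± 0.39 (-0.96, exact permutation p = 0.0635), and Elovl6, a fatty acid elongase, differed by -1.62 (exact permutation p = 0.0952). Without the 3 mice both differed by -0.03, and the list median of 23 genes went from -0.18 to -0.02. The 3 mice were picked for their fat markers, so whether these genes follow fat was not tested. Without the same 3 mice, medians of muscle markers went from -0.80 to -0.03 for skeletal muscle and from -0.79 to -0.03 for heart and pulmonary vein. The mice did not keep the order of the fat markers. For heart and pulmonary vein, dexamethasone mouse A averaged 8.45, below dexamethasone mouse E at 8.78. Dexamethasone mouse A, at 6.80 against 4.12 to 4.95 in its group, stood alone in the skeletal muscle list, whose median was -0.24 without it. The median for heart and pulmonary vein was -0.46 without dexamethasone mouse C and -0.51 without dexamethasone + As mouse A. The medians of clock, immediate early and inflammatory genes stayed below 0 without the 3 mice, which leaves 2 dexamethasone mice, E and F, both of array batch 4, so that fat and array batch cannot be told apart in these values. Nr4a3 differed by -2.19, Dbp by -1.68 and Nr1d2 by -0.84, and the list medians were -0.28 for clock genes, -0.47 for immediate early genes and -0.22 for inflammatory genes. The heat shock median was -0.09. Neutrophil markers averaged 8.65 in dexamethasone + As mouse A and 6.47 to 6.76 in the other 4, and their median of 0.32 was -0.13 without this mouse. Airway secretory markers had a median of -0.51, with Scgb3a1 at -1.20 (exact permutation p = 0.0794).

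**Figure D4:**
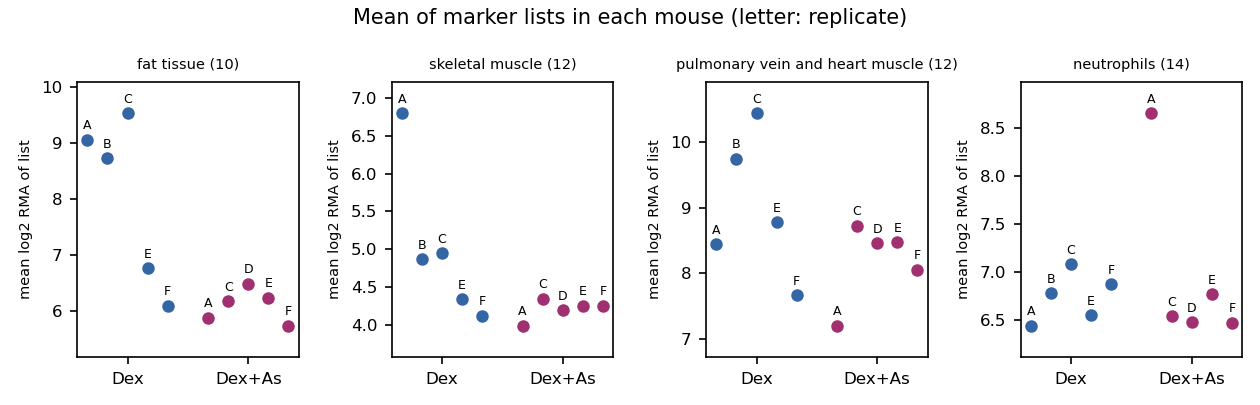
Mean RMA value (log2) of 4 marker lists in each dexamethasone and dexamethasone + As mouse, with its letter and the number of genes in brackets. Dexamethasone mice A, B and C lie between 8.73 and 9.53 for fat, above every other mouse shown, and dexamethasone + As mouse A lies at 8.65 for neutrophils.

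Among the remaining lists the medians were 0.01 for 10 surfactant genes, -0.06 for 23 genes of the unfolded protein response, 0.00 for 18 p53 and Gadd45 genes, 0.08 for 21 acute phase genes, 0.04 for 25 interferon-stimulated genes, 0.08 for 17 genes of the NF-kappaB pathway, 0.12 for 27 cell cycle genes, 0.17 for 13 ion and water channels and -0.14 for 17 cholesterol synthesis genes. In the unfolded protein list Ern1, its sensor, differed by 0.29 (exact permutation p = 0.0794). In the cholesterol list Cyp51 and Nsdhl differed by -0.48 and -0.39 (exact permutation p = 0.0238 and 0.0714).

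**Figure D5:**
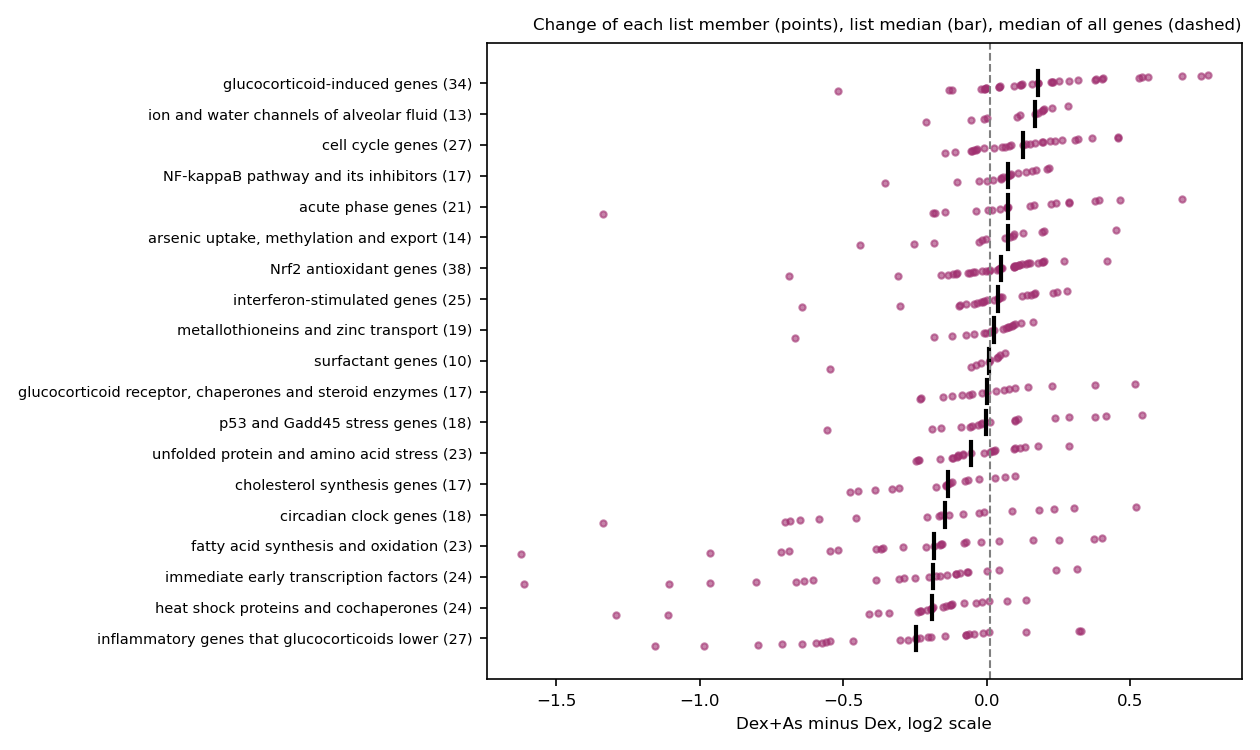
Difference between dexamethasone + As and dexamethasone (log2 scale) of each gene of 19 lists, 1 point per gene, with the list median as a bar and the number of genes in brackets. The list medians lie between -0.25 and 0.18, and the dashed line is the median of all genes, 0.01.

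The genes ranked next by p were ones of small difference. Slc43a2, an amino acid transporter, was 6.26 ± 0.27 with dexamethasone and 7.11 ± 0.67 with dexamethasone + As (0.85, exact permutation p = 0.0159), but the difference was 0.15 on its brighter probe set (exact permutation p = 0.484). Helq, a DNA helicase, differed by 0.41 and Miip by 0.23, each with no overlap between groups and an exact permutation p of 0.00794, the smallest that 5 mice against 5 allow. Pced1a, 2610035D17Rik and Cep128 differed by 0.35, 0.45 and 0.30. Tug1, Xab2, Alkbh4 and Sgf29 differed by 0.33, 0.30, 0.35 and 0.28 on the probe set ranked, and by -0.10, 0.20, 0.01 and 0.16 on the brighter one. Lower with As were Prkar2b, a regulatory subunit of protein kinase A, by -0.51 with no overlap and by -0.47 on its brighter probe set, Cycs, cytochrome c, by -0.46 and Fam110c by -0.30. Gja1, the gap junction protein connexin 43, and Ptges3l differed by -0.50 and -0.41 on the probe set ranked, and by -0.35 and -0.24 on the brighter one (exact permutation p = 0.111 and 0.214).

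For the dependence of the As difference on dexamethasone, Msl1, a subunit of a histone acetyltransferase complex, had the smallest limma p. It was 7.26 ± 0.07 with dexamethasone, 7.05 ± 0.11 with dexamethasone + As, 7.09 ± 0.14 with saline and 7.67 ± 0.19 with arsenite. The dependence was -0.80 (95% interval -1.08 to -0.52, adjusted p = 0.379), and -0.32 on its brighter probe set. Without arsenite mouse B its value was -0.89 and it alone passed. Mboat2 (-0.60) and Ddit3, a stress factor (-0.68), had values below 0, and Zc3h14 (0.52), Neu3 (0.60) and Smim8 (0.50) above 0, each at an adjusted p of 0.999. Glg1, Orai2 and Tln1 had -0.48, 0.68 and 0.52 on the probe set ranked, each also at an adjusted p of 0.999, and -0.10, 0.22 and 0.23 on the brighter one.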

How the data were processed

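Lung RNA of 20 injected mice was used, 1 array per mouse, of 55 in the series. The authors deposited log2 values made from the raw arrays by RMA, and no version of RMA is given in the sources used here. Raw arrays were not used here. The table holds 45101 probe sets, and 45037 were tested after 64 control ones had been removed. Genes were named through the platform annotation where a probe set carries 1 symbol (34945), and 932 carry several and 9160 none. Where several probe sets measure 1 gene, the values are those of the brightest by mean over the arrays of the fit, unless another is named. The number of mice limits the precision. The labels call the mice biological replicates.

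The comparisons were made in limma 3.58.1 (R 4.3.3) from 1 linear model over 19 mice of the 4 injection groups, empirical Bayes, two-sided, and Benjamini-Hochberg over all probe sets at 0.05. Single genes also had exact two-sided permutation tests over 252 orderings (numpy 2.4.6). Python 3.11.15, pandas 2.3.3 and matplotlib 3.10.9 were used. The scripts were tested on simulated data. Arsenite mouse E was left out because earlier results of these data gave its array as one of low quality. Members, gene lists, tests and the promoters shown were chosen with earlier results of these data known. Genes named are, in each direction, 10 for the comparison and 5 for the interaction: those past the threshold by size, filled up by the smallest p where the mean is at least 5, and up to 4 members of each list by size and every member that passed. Genes of the dexamethasone response, Ccl5 included, were chosen after values were seen. Letters do not pair the mice: same-letter pairs of the 2 groups correlated at -0.33 to 0.147 in their deviations from the group means (n = 4). Pairs of the same array batch correlated at 0.018 to 0.387 (n = 5, median 0.211), against a median of -0.0642 for other batches, and the permutation tests hold no batch term.

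Alternatives were a dim filter (above 5 on at least 5 arrays), array batch as fixed or random block, a block for the replicate letter, weighted arrays (statmod 1.5.0), quantile and median centring, a robust trend, the 10 mice alone, all 20 mice, the rank product (100 orderings) and leaving out each mouse. Leaving out array batch 1, or the 3 dexamethasone arrays highest in fat markers, was chosen after seeing the data.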

Additional observations from a re-analysis of the deposited data

Results flagged for a closer look

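Of 128 sets of 5 values tested, 8 had 1 mouse far from the other 4 by Dixon's test, where chance flags about 1 in 20. In dexamethasone mice, the mean of the metallothionein and zinc transport list was 8.13 in mouse A and 7.71 to 7.81 in the other mice. The arsenic uptake, methylation and export list averaged 6.53 in mouse B and 6.38 to 6.41 elsewhere, and the mean of the surfactant genes was lowest in mouse B, at 11.86, with 12.15 to 12.27 in the others. In dexamethasone + As mouse A, neutrophil markers averaged 8.65 against 6.47 to 6.76 in the others, red cell markers 5.86 against 4.88 to 5.05, and nerve and ganglion markers 4.41 against 4.18 to 4.21. The same mouse was lowest in Gja1 on the probe set ranked by p, which is not the brightest of the gene, at 8.06 against 8.92 to 9.21. Dexamethasone + As mouse F was lowest in 2610035D17Rik, at 5.16 against 5.69 to 5.87.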

How the results depend on the processing

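Between dexamethasone + As and dexamethasone, limma called 0 probe sets higher and 0 lower in each alternative, leaving out each mouse in turn included (0 to 0). With the letter as a replicate block, for which the letters give no pairing, the counts were 0 and 0. The rank product gave 3449 higher and 3119 lower, and 1568 and 1904 without dexamethasone mice A, B and C.

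Counts against saline moved. With all 20 injected mice they were 8 higher and 0 lower for dexamethasone and 7 and 0 for dexamethasone + As, and with array batch as a fixed block 239 higher for dexamethasone, where lower calls went from 161 to 236, and 568 and 368 for dexamethasone + As. Leaving out single mice gave 30 to 198 higher and 17 to 288 lower for dexamethasone, 88 to 391 higher and 30 to 177 lower for dexamethasone + As, and 0 to 4 higher and 0 to 1 lower for arsenite. The highest 2 counts for dexamethasone and the 391 for dexamethasone + As came without dexamethasone + As mouse A. The lowest for dexamethasone came without dexamethasone mouse E, and those for dexamethasone + As without dexamethasone + As mouse F or saline mouse F. These counts also moved by over 1.5 times without dexamethasone mouse B, C or F, dexamethasone + As mouse C or E, saline mouse B, D or E, or arsenite mouse F, within the same ranges. The calls for arsenite came without arsenite mouse B or saline mouse E. The interaction gave 0 higher and 0 to 1 lower, the 1 without arsenite mouse B.

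Some single genes turned in sign. Without dexamethasone + As mouse A, Il1r2 was -0.16 and Slc30a2 -0.034 (range over mice left out -0.16 to 1.16 and -0.034 to 0.27). Without array batch 1 they were -0.32 and -0.021, and Il1r2 was -0.12 with array weights. Mt4 was 0.26 without dexamethasone mouse A (range -0.94 to 0.26). Without the 3 arrays highest in fat markers, Mt4 was 0.28, Mt3 0.046, Tkt 0.026 and Mt1 0.31. Mt1 was 0.14 with the replicate block and ran from -0.62 to 0.13 when mice were left out, with 0.13 without dexamethasone + As mouse D, 0.12 without mouse F and 0.10 without dexamethasone mouse C. The interaction of Glg1 was 0.19, on the probe set ranked, with all 20 injected mice. The causes were not tested.

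The 5 mice of a group limited what could be detected. The median 95% interval, unadjusted, reached 0.26 to either side of the difference, and 0.30 for probe sets with a mean over 5. At the adjusted threshold much larger differences did not pass either, Nr4a3 at -1.61 among them. Fat markers were higher in 3 dexamethasone mice than in every dexamethasone + As mouse, and the part of fat in the difference of other genes was not tested beyond leaving out these mice.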
